A study of Mus musculus with 9 samples.

Results

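The ventral region of the mouse brainstem was compared with the dorsal region and with a region labelled target. The 3 ventral arrays were chosen by their label and set against the mean of the target and dorsal group means, out of 9 arrays in all. Every array carried total RNA of 1 region of 1 male mouse aged 8 weeks. All 9 samples shared the genotype Chat-Cre:Ai9, in which Cre recombinase is made where Chat, which codes for choline acetyltransferase, is active, and Ai9 is a reporter allele that makes the red protein tdTomato once Cre has acted. The labels name no group without these alleles and no treatment. The 3 regions were named only ventral, target and dorsal; neither the way they were cut nor the aim of the target region is stated in the labels. The series title names neurotensin neurons of the brainstem and non-REM sleep. In the deposited column names the equal numbers 1, 2 and 3 stand for the same 3 mice, so each mouse gave 1 array per region.

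The brainstem holds the nuclei of most cranial nerves, the monoamine cell groups and the reticular neurons that use glutamate, GABA or glycine, and many of its small nuclei are marked by a neuropeptide. Neurotensin, encoded by Nts, and calcitonin gene-related peptide, encoded by Calca, are both cut from precursor proteins, stored in dense-core vesicles and released beside a fast transmitter. A piece of tissue also contains oligodendrocytes, which are dense where fibre tracts run, as well as astrocytes, microglia, vessels and blood. In RNA from whole tissue, fewer cells of a type and less RNA per cell cannot be told apart.

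Levels below are log2 normalised intensities, and a difference is the ventral mean minus the mean of the target and dorsal means on that log2 scale, so that 1 unit is a doubling of the fluorescence. The 45281 probes were read through a median of 43 to 45 beads each. Ventral arrays had 16703 to 18645 probes above background, target arrays 16842 to 19172 and dorsal arrays 17997 to 19945. Probes above background on at least 3 of the 9 arrays were tested, which left 20461. Markers of neurons were above background on every array of every region for Snap25, Syt1, Eno2 and Map2, and those of GABAergic and glutamatergic neurons for Gad1, Gad2, Slc32a1 and Slc17a6. Markers of cholinergic neurons were not: no Chat probe was above background on more than 2 arrays, and Slc18a3 and Slc5a7 were at background on all 9. Th and Dbh, the catecholamine enzymes, and Slc6a4, the serotonin transporter, were also at background on all 9 arrays. These 6 genes could not be compared.

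The sequences before the transcription start are shown for the peptide gene whose 2 probes agreed and for the genes with the largest difference in each direction. They are from RefSeq, build GRCm38.p6, 250 bases long, printed on the gene's strand from 5′ to 3′, with capitals where a searched motif was found. Nts lies on the minus strand at chr10:102490419-102490668, Mmel1 on the plus strand at chr4:154869335-154869584 and Cops6 on the plus strand at chr5:138160852-138161101. All 3 genes had an entry in the table used.
Nts: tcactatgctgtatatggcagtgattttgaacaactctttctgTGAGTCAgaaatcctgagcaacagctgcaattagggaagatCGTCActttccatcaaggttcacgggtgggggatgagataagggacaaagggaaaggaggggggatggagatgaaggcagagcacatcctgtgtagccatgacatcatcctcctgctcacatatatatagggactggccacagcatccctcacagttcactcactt
Mmel1: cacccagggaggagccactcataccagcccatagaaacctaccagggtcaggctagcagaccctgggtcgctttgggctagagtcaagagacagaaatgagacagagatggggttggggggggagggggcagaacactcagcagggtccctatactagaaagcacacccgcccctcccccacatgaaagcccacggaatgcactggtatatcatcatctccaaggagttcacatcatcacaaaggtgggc
Cops6: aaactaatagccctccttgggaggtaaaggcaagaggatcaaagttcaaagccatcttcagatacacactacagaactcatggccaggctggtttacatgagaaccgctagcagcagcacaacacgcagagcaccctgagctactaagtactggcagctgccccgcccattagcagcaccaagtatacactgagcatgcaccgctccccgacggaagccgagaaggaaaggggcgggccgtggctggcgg
The motifs searched on both strands were AP-1 (TGACTCA), the cAMP response element (TGACGTCA), its shorter form (TGACG), which lies within it, the TATA box (TATAAA) and the E-box (CACGTG). Both matches were in the Nts sequence on the opposite strand, 1 AP-1 motif 207 to 201 bases before the start and 1 shorter cAMP motif 166 to 162 bases before it, and they did not overlap. Among 27025 promoters of the same length, AP-1 was found in 4.43%, the cAMP response element in 1.62%, its shorter form in 17.9%, the TATA box in 13.0% and the E-box in 6.05%. A match describes the letters only.

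Ventral tissue differed from the other regions at 1501 of the 20461 tested probes (7.34%), at an adjusted p below 0.05 from limma with Benjamini-Hochberg adjustment. Of these, 729 (3.56%) were higher and 772 (3.77%) lower in ventral, and they stood for 1457 gene names. The median size of a called difference was 1.08, against 0.27 over all tested probes. A change of more than 4-fold was seen at 98 called probes, 32 higher and 66 lower. At 33 of the higher probes all target and dorsal arrays were at background, so they passed the filter only through ventral arrays. At 152 of the lower probes all ventral arrays were at background, so they passed it only through target and dorsal arrays. For such probes the filter and the test used the same signal. The 3 ventral arrays lay entirely above or below the 6 target and dorsal arrays at 1394 of the called probes, where 13.3% of all tested probes did so. Without ventral array 1, 885 probes were called. The higher and lower counts depend on the scaling. When median centring took the place of quantile normalization, the median difference of all tested probes moved to -0.19, against -0.03, and 357 probes were called higher and 1030 lower.

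**Figure D1:**
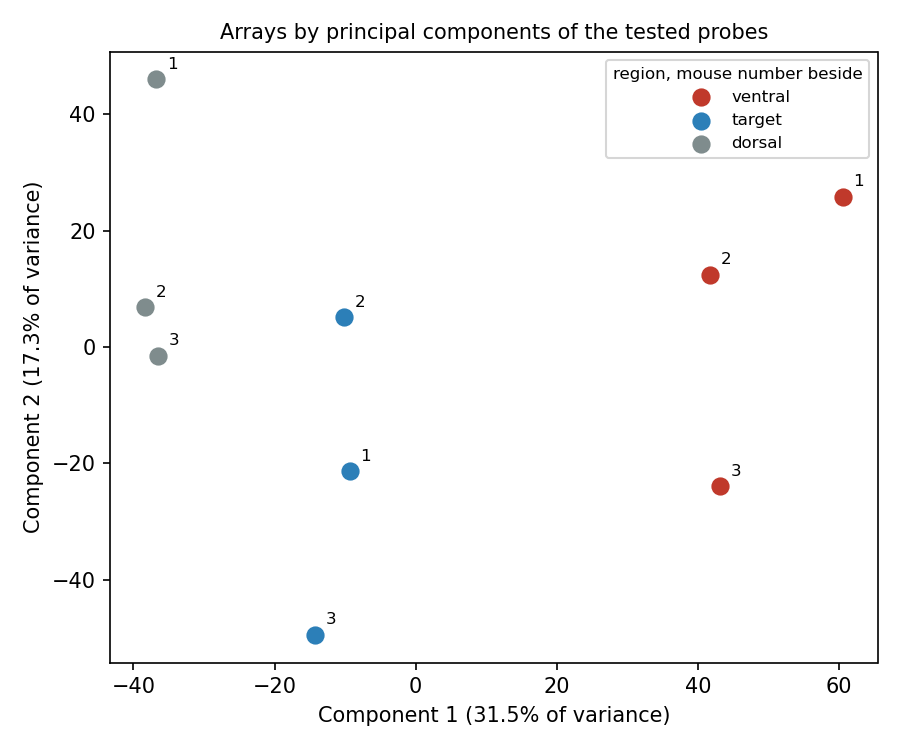
Positions of the 9 arrays on the first and second principal components of the tested probes, with the share of variance on each axis and the mouse number beside each point. The 3 ventral arrays lie between 41.7 and 60.5 on component 1, the target arrays between -14.3 and -9.34 and the dorsal arrays between -38.3 and -36.5.

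On the first principal component, with 31.5% of the variance, the target arrays lay between the ventral and the dorsal arrays. The called probes had the same order. The target mean was between the ventral and the dorsal mean at 1217 of the 1501, and the dorsal mean was between at 284. Ventral was farther from dorsal than from target at 81.1% of called probes and at 58.1% of all tested probes. Against single regions, 365 probes (1.78%) passed for ventral minus target and 1632 (7.98%) for ventral minus dorsal. Only 12 (0.0586%) passed for target minus dorsal. These pairwise contrasts share arrays. Of the 1501 called probes, 956 passed against dorsal alone, 32 against target alone, 187 against neither and 326 (1.59% of tested probes) against each of the pair in the same direction. By brightest probe this held for 247 genes (1.73%). Of the 326 probes, 114 (0.557%) were higher in ventral and 212 (1.04%) lower. With the mouse as a replicate block, 141 probes passed against both regions, 45 higher and 96 lower. Without target array 3 the number was 62, the lowest of the fits that left out an array.

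**Figure D2:**
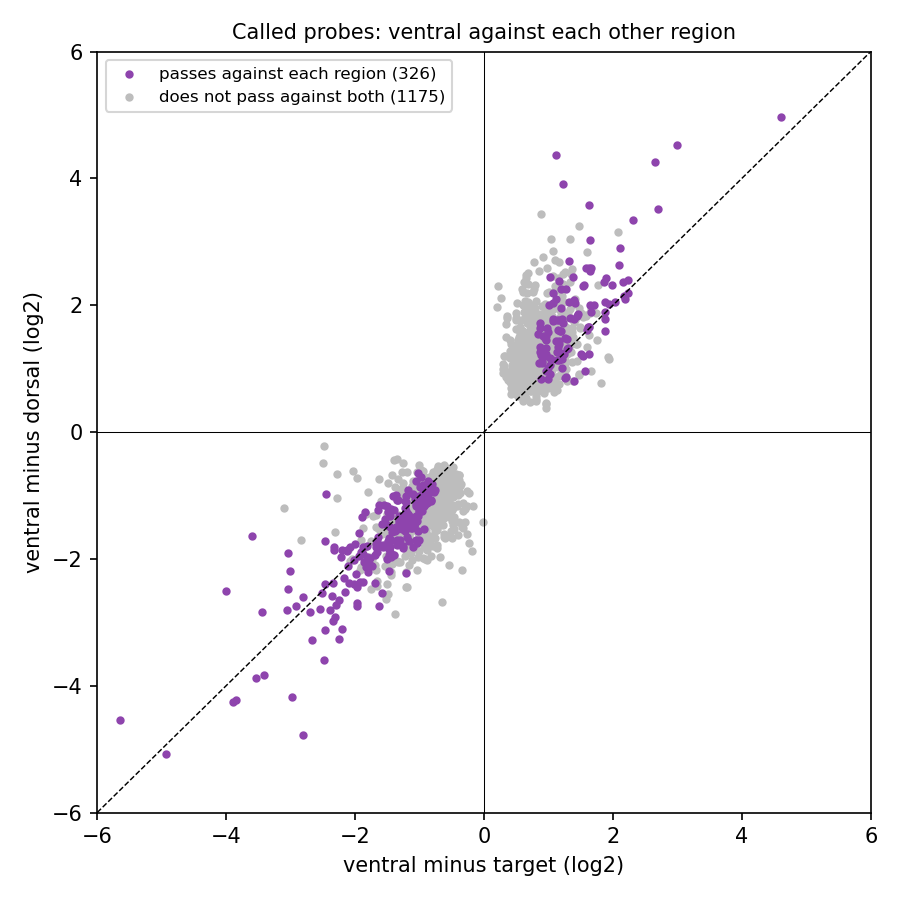
Each point is 1 of the 1501 called probes, with ventral minus target (log2) on the horizontal and ventral minus dorsal (log2) on the vertical axis. Purple points are the 326 that passed against each region, and the dashed line marks equal differences. Most points lie farther from zero on the dorsal axis.

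Different probes of the same gene agreed about as often over the called probes as over all probes. A second tested probe existed for 664 genes with a called probe, and it moved in the same direction in 353 of them (53.2%, exact binomial 95% interval 49.3 to 57.0). Over all 2596 genes with exactly 2 tested probes, the directions agreed in 51.6%. Among the called genes whose 2 probes were above background on all 9 arrays the share was 53.2% of 404. Where the called probe changed more than 2-fold, 208 of 384 second probes had the same direction. The called probe and the brightest other probe were both called in the same direction for 12 genes: Nts, Slc6a2, Morn1, Katnbl1, Arl4c, Chtf8, Krit1, Phf6, Smg6, Tns3, Trim23 and Zfp300. Both were called in opposite directions for 8 genes, Smarce1, Rap1gap, Gnl3, Gpr85, Pogk, Ppm1l, BC002199 and Hbb-b1. With the replicate block, which fits the mouse as a term, both calls remained for 6 of the 12 and 2 of the 8. When every tested probe of a name was counted, 17 names held called probes of both directions. Chtf8, listed among the 12, was 1 of these names, as 1 of its 3 called probes was higher in ventral and the others were lower. Smarce1, a chromatin-remodelling subunit, had a difference of 2.61 by 1 probe (adjusted p = 0.0283) and of -0.80 by the other (adjusted p = 0.0345). The members of these 12 and 8 that the naming rule does not take were chosen after their values were seen. Calls reported below are of the brightest probe of a gene unless another probe is named. The gene lists used below were chosen with earlier results of these data known, so the share called in a list is not separate evidence.

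**Figure D3:**
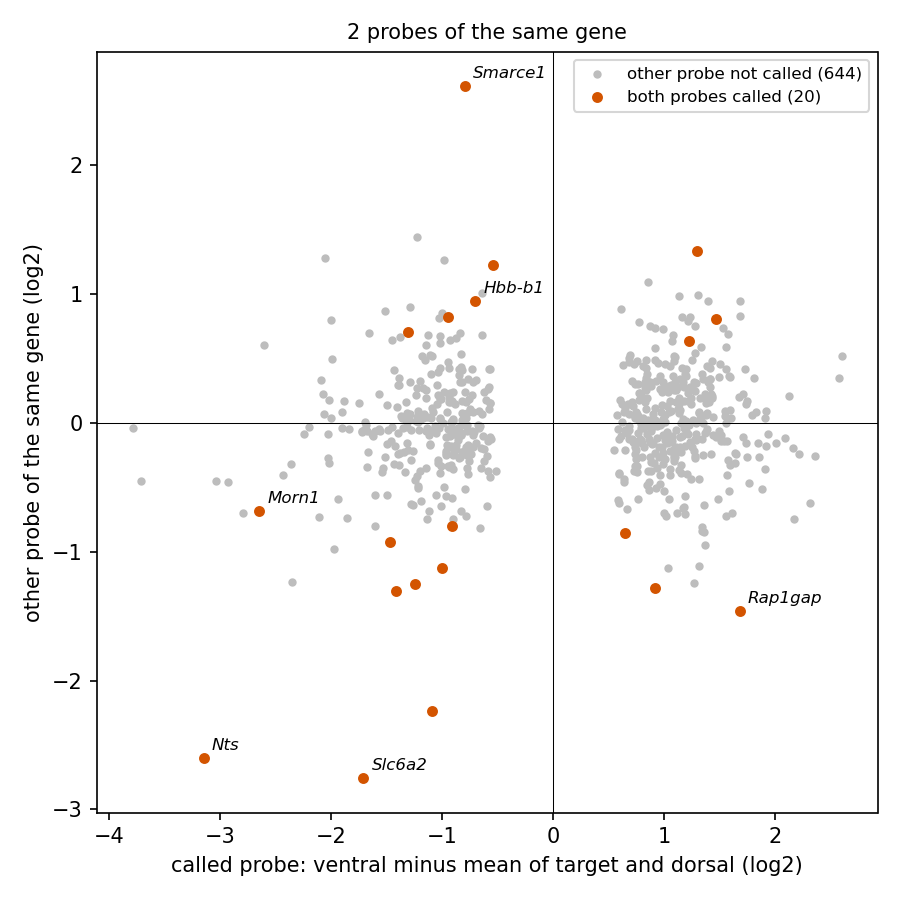
Difference of the called probe (horizontal, log2) against that of the brightest other tested probe of the same gene (vertical, log2) for 664 genes. Orange points are the 20 genes with both probes called, where Nts, Slc6a2 and Morn1 lie in the lower left quadrant and Smarce1, Rap1gap and Hbb-b1 in quadrants of opposite sign.

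Nts, the neurotensin precursor, had the largest lowered difference among the genes with both probes called. Its brighter probe had levels of 6.71, 5.87 and 6.67 on the ventral arrays, against 9.97, 9.81 and 9.82 on the target arrays and 9.24, 9.25 and 9.29 on the dorsal arrays. Every ventral array was below all 6 others, 1 of the 3 was not above background, and target was above dorsal in every mouse. The difference was -3.15 ± 0.20 (SE, n = 3 arrays per region, limma adjusted p = 1.07e-04), an 8.86-fold lower level. The second Nts probe was at background on all 3 ventral arrays (5.14, 4.99 and 5.40), against 8.19, 8.16 and 8.21 in target and 7.41, 7.24 and 7.46 in dorsal. For a region at background on all its arrays the level is only a bound. On each array at background in the dimmer regions the dimmest probe still above background stood in for the missing level, or the probe itself where it was brighter, and the fold is against the mean of the other regions. By that bound the second probe was at least 3.93-fold lower in ventral (adjusted p = 5.13e-05). Both probes passed against target and against dorsal.

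Calca was the other called neuropeptide precursor. It was at background on all 3 ventral arrays (4.83, 4.67 and 5.02), against 7.84, 8.09 and 7.89 in target and 5.55, 5.57 and 7.0 in dorsal, where 1 array was above background. The ventral arrays lay below all others, with target highest. The level was at least 2.28-fold lower in ventral (adjusted p = 0.00468). It passed against target (adjusted p = 0.00499) and not against dorsal (adjusted p = 0.0766), and with target and dorsal pooled as 1 group of 6 the call ended (adjusted p = 0.0604). Of 13 tested neuropeptide precursors 2 were lower and none higher (15.4% called), and the other 11 had differences from -0.58 (Gal) to 0.50. The list median was -0.02, against -0.05 over all genes. Galanin, encoded by Gal, showed levels of 6.74, 6.54 and 5.99 in ventral, 7.74, 7.79 and 8.04 in target and 5.95, 6.10 and 6.42 in dorsal. The ventral level overlapped that of dorsal and was below that of target (adjusted p = 0.0234 for ventral minus target). None of 14 tested neuropeptide receptors passed, with differences from -0.93 for Hcrtr2, an orexin receptor, to 1.10 for Cckbr, a cholecystokinin receptor. Over all genes 7.55% were called.

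Slc6a2, the noradrenaline transporter, was lower in ventral by both of its tested probes. The brighter one had levels of 6.69, 6.08 and 6.73 in ventral, 8.85, 9.20 and 8.78 in target and 7.42, 7.80 and 7.20 in dorsal. The groups did not overlap, and their order was ventral, dorsal, target. The difference was -1.71 ± 0.21 (adjusted p = 0.00260), and with 1 group of 6 the adjusted p was 0.0511. The second probe was at background in ventral (4.74, 4.68 and 4.58) and 7.71, 7.95 and 7.47 in target and 6.84, 7.21 and 7.37 in dorsal, at least 3.08-fold lower in ventral (adjusted p = 1.02e-04). Of 10 tested genes of monoamine neurons 2 were lower (20% called, against 7.55% of all genes), none was higher and the median was -0.10. The other called one, Maob, a monoamine-degrading enzyme that glia also make, differed by -0.96. It lost its call under 10 alternatives, with probe averaging not counted (adjusted p up to 0.115). Another tested Maob probe went the other way and was not called (0.09, adjusted p = 0.847). Tph2, the serotonin-synthesizing enzyme, had a difference of 0.07 at levels near background.

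Among 6 tested genes of cholinergic and cranial motor neurons, Prima1, the membrane anchor of acetylcholinesterase, was lower in ventral. Its levels were 6.46, 5.94 and 6.12 in ventral, 7.10, 7.74 and 7.75 in target and 7.45, 7.83 and 7.73 in dorsal. The ventral arrays lay below all others, with a difference of -1.43 ± 0.21 (adjusted p = 0.00473) that passed against each region. The list median was -0.33, and 1 of the 6 members had a positive difference. Enzymes and transporters that define fast transmission did not pass. Slc17a6, the vesicular glutamate transporter of the brainstem, differed by -0.21 ± 0.13, Gad1 and Gad2, the GABA-synthesizing enzymes, by 0.06 ± 0.14 and -0.12 ± 0.14, and Slc32a1, the vesicular GABA and glycine transporter, by 0.26 ± 0.16 (SE).

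Of 20 tested genes of GABA and glycine neurons 1 was higher and 1 lower (10%, against 7.55% of all genes), with a median of -0.01. Slc6a5, the neuronal glycine transporter, had levels of 9.68, 9.65 and 9.89 in ventral, 9.11, 9.42 and 9.26 in target and 8.98, 8.70 and 9.12 in dorsal. The ventral arrays were the highest, but the call was close to the limit (0.64 ± 0.16, adjusted p = 0.0409), and its adjusted p was 0.0699 with the replicate block. The call ended under 12 alternatives, with probe averaging not counted, and the second Slc6a5 probe differed by 0.12. Of 20 tested glutamate genes 2 were lower and none higher (10% called, against 7.55% of all genes), with a median of -0.15. Grik4, a kainate receptor subunit, was at 6.27, 5.55 and 5.83 in ventral, 6.93, 7.11 and 7.09 in target and 7.22, 7.04 and 7.68 in dorsal. These groups did not overlap, and the difference of -1.30 ± 0.21 (adjusted p = 0.00683) kept its call under every alternative run.

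The 12 lowered genes with the largest differences were taken from those whose ventral arrays lay apart from all others, without clone-named or predicted genes. Mmel1, a membrane metallopeptidase related to neprilysin that cleaves small peptides, was at background on all 3 ventral arrays (5.04, 4.77 and 4.76), against 9.80, 10.93 and 10.79 in target and 9.48, 8.90 and 9.84 in dorsal. Every ventral array was far below the lowest array of the other regions. The difference was -5.10 ± 0.29, and the level was at least 17.8-fold lower in ventral (adjusted p = 5.13e-05). Olfr711, an olfactory receptor gene, was also at background in ventral (4.56, 4.66 and 4.87), with 8.65, 8.55 and 8.57 in target and 9.60, 9.08 and 8.15 in dorsal, at least 7.81-fold lower (adjusted p = 1.37e-04). A further olfactory receptor gene, Olfr214, was at least 3.34-fold lower. Tbc1d15, a GTPase-activating protein of Rab proteins, was at 5.66, 7.08 and 7.69 in ventral, 10.43, 10.11 and 10.12 in target and 10.31, 10.77 and 10.86 in dorsal. Its ventral arrays were spread but stayed below all others (-3.62 ± 0.38, adjusted p = 0.00139).

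Supt20, a subunit of the SAGA coactivator complex, was above background on all arrays, at 7.75, 7.14 and 6.71 in ventral, 9.53, 10.28 and 10.20 in target and 9.81, 9.70 and 9.87 in dorsal. Ventral lay well below all others, with a difference of -2.70 ± 0.25 (adjusted p = 7.64e-04). Mark4, a kinase of microtubule-associated proteins, was at 4.96, 5.76 and 6.17 in ventral, 8.72, 9.61 and 9.33 in target and 7.27, 6.98 and 7.57 in dorsal (-2.62 ± 0.30, adjusted p = 0.00176). Here target was the highest region, as for Nts and Calca. Dipk1b, of a family of kinase-like proteins of the secretory pathway, was at least 4.54-fold lower by 1 probe, and its other probe differed by -0.45 (adjusted p = 0.281). Morn1, Clrn1 and Arhgap27 were at background in ventral and at least 3.61-, 2.94- and 2.55-fold lower. Nat2, an arylamine N-acetyltransferase, completed the 12 with a difference of -2.75. All 12 passed against each region and kept their calls under every alternative run, and 9 of them had 1 tested probe.

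Cops6, a subunit of the COP9 signalosome, which removes the ubiquitin-like protein Nedd8 from cullins, was the most strongly raised gene. It had levels of 9.67, 9.91 and 9.64 in ventral, against 5.37, 4.87 and 5.15 in target and 4.77, 4.88 and 4.65 in dorsal, where all 6 arrays were at background. The difference was 4.79 ± 0.16, and the level was at least 16.7-fold higher in ventral (adjusted p = 3.61e-06). Cops6 entered the test only through its ventral arrays, so this adjusted p is not separate from that selection. The other 8 tested COP9 genes did not pass and had differences from -0.32 to 0.36, so that 11.1% of the list was called, against 7.55% of all genes. Tesk1, a kinase of the actin-severing protein cofilin, was at 9.87, 10.01 and 9.65 in ventral, 6.19, 7.47 and 7.94 in target and 5.50, 5.56 and 5.69 in dorsal (3.46 ± 0.33, adjusted p = 8.49e-04). The ventral arrays were above all others and tight, while the target arrays were spread. Cdkn2d, an inhibitor of the G1 cyclin-dependent kinases, was at 10.28, 10.28 and 10.11 in ventral, 9.44, 9.03 and 8.84 in target and 5.94, 6.03 and 5.60 in dorsal. It fell into 3 separate levels, and the difference of 2.74 ± 0.18 (adjusted p = 1.08e-04) lost its call when target and dorsal were taken as 1 group of 6 (adjusted p = 0.105). The other 6 tested cell cycle inhibitors did not pass (14.3% of the list called), and the median of the 7 was -0.30.

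Slc35b4, a nucleotide-sugar transporter, was at 7.61, 6.69 and 8.31 in ventral, 5.04, 5.23 and 6.07 in target and 4.79, 4.80 and 5.11 in dorsal. The ventral arrays were the highest, 1 target array was above background, and the level was at least 3.54-fold higher (adjusted p = 0.00515). Lgmn, the lysosomal protease legumain, was at 8.01, 6.87 and 7.84 in ventral, 5.32, 6.46 and 5.35 in target and 5.15, 5.16 and 5.32 in dorsal, at least 3.37-fold higher, with 1 target array above background. Its lowest ventral array was only a little above the highest target array. Fam120a, an RNA-binding protein, Mrps34, of the small mitochondrial ribosomal subunit, and Rogdi, a gene of the human Kohlschütter-Tönz syndrome of epilepsy and enamel defects, were 2.14 to 2.19 higher. Of the 12 largest raised genes 10 passed against each region, and in 11 target was the nearer region to ventral. A probe without a tested partner stood for 11 of them.

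**Figure D4:**
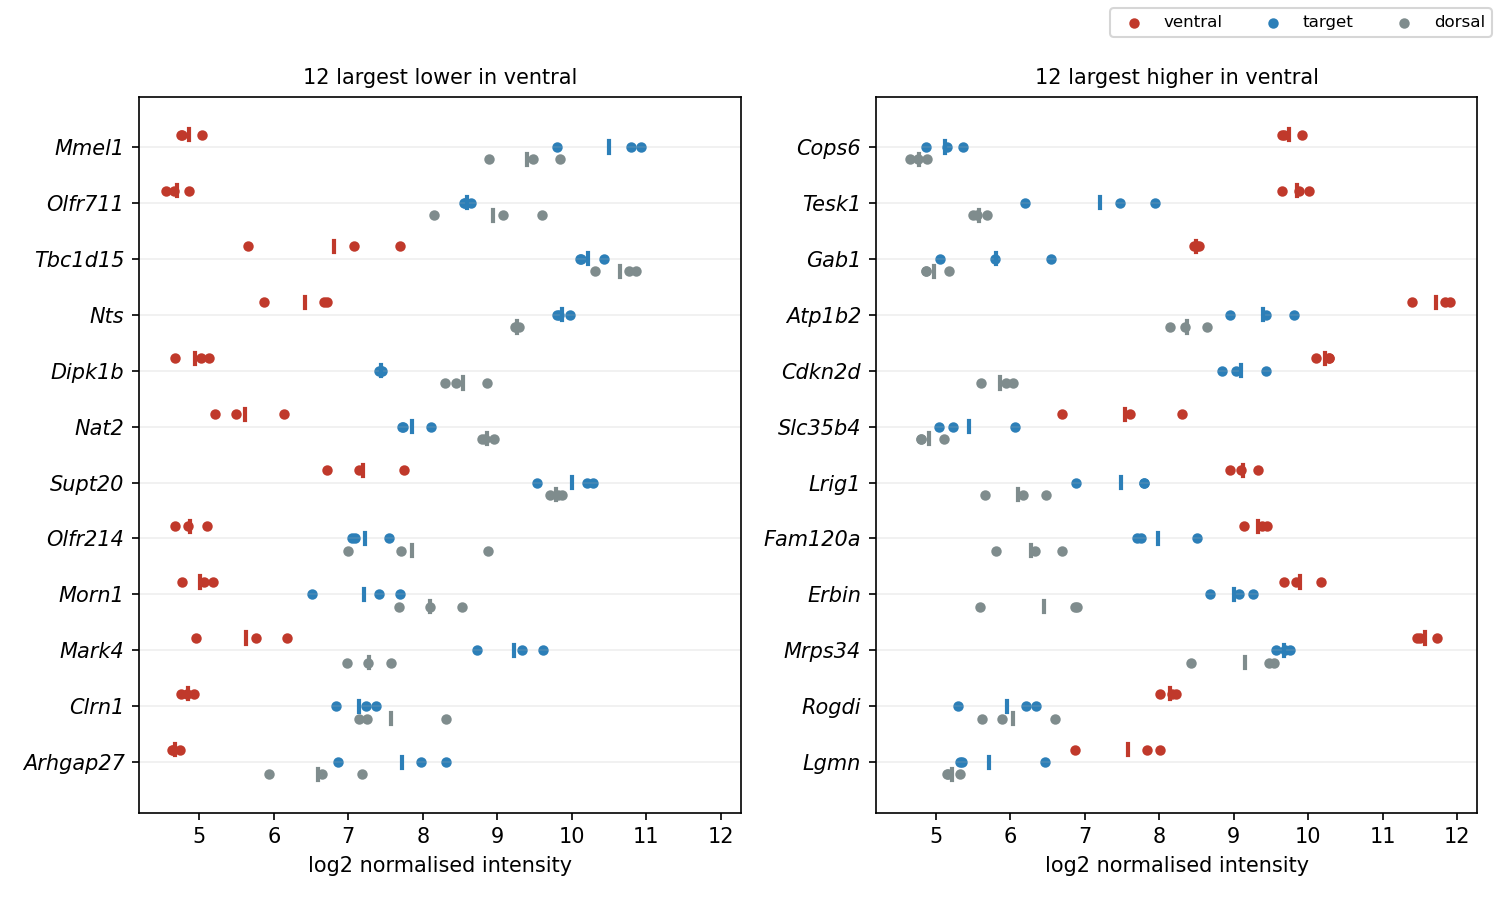
Levels (log2 normalised intensity, horizontal) on each of the 9 arrays for the 12 called genes with the largest lower (left) and the 12 with the largest higher (right) difference in ventral, out of genes whose ventral arrays lay apart from all others and without clone-named or predicted genes. Points are arrays coloured by region, ventral above target above dorsal within a gene, and short bars are the means of 3. The separation of the ventral points was a condition of the choice, and Mmel1 and Cops6 have the largest differences among them.

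Genes of the sodium pump and its ion partners were called higher for 3 of 12 tested, and none was lower. The share was 25.0%, against 3.23% of all genes called higher and 7.55% called in either direction. The list was chosen with earlier results known, so this share only describes its members. Atp1b2, the beta subunit that is typical of glia, was at 11.84, 11.40 and 11.90 in ventral, 9.80, 8.95 and 9.43 in target and 8.14, 8.34 and 8.64 in dorsal. The ventral arrays were above all others, with a difference of 2.83 ± 0.22 (adjusted p = 3.07e-04). Fxyd6, a small regulatory subunit of the pump, was at 11.85, 11.78 and 11.82 in ventral, 10.42, 10.29 and 10.59 in target and 8.96, 9.44 and 9.69 in dorsal (1.92 ± 0.18, adjusted p = 8.11e-04). Its 3 regions formed 3 separate levels. Slc8b1, the mitochondrial sodium and calcium exchanger, was at 6.64, 7.43 and 7.15 in ventral and at background on all 6 other arrays, at least 2.63-fold higher (adjusted p = 0.00139). Like Cops6, it entered the test only through its ventral arrays. Each of these rested on 1 probe, passed against both regions and kept its call under every alternative run. The other 9 members had differences from -0.38 to 0.07, and the list median was -0.02.

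Potassium and HCN channel genes gave no higher and 2 lower calls of 27, with a median of -0.06. The share called, 7.41%, was close to the 7.55% of all genes. Kcnj10, the inward rectifier of glia, was at 9.14, 9.37 and 9.27 in ventral, 10.04, 9.73 and 10.12 in target and 10.10, 10.09 and 10.13 in dorsal. All ventral values were the lowest (-0.77 ± 0.15, adjusted p = 0.0142), and without ventral array 1 the adjusted p was 0.0607. Kcnab1, a channel beta subunit, was called lower by its brightest probe (-0.56) and by a dimmer one at background in ventral (at least 1.46-fold lower, adjusted p = 0.0284), and both calls ended with the replicate block (adjusted p = 0.0705 and 0.0674). Of 20 sodium and calcium channel genes 1 was called (5%, below the share of all genes). It was Scn1a, a sodium channel of fast-spiking neurons, at 1.27 higher, and the call ended under 9 alternatives (adjusted p up to 0.106). The list median was -0.04.

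Genes around the ErbB receptors, which carry growth signals in neurons and glia, gave 4 higher and 1 lower call of 18 (27.8%, against 7.55% of all genes). This list too was chosen with earlier results of these data known, and its share only describes its members. Gab1, a docking protein that links receptor kinases to their effectors, was at 8.46, 8.53 and 8.50 in ventral, 6.54, 5.80 and 5.06 in target and 4.87, 5.18 and 4.87 in dorsal. Ventral was above all others, dorsal and 1 target array were at background, and the ventral level was at least 6.24-fold above the mean of both regions (adjusted p = 6.28e-04). Lrig1, which lowers the amount of ErbB receptors at the surface, was at 8.95, 9.33 and 9.10 in ventral, 7.79, 7.80 and 6.88 in target and 5.65, 6.17 and 6.48 in dorsal (2.33 ± 0.26, adjusted p = 0.00176). Erbin, a scaffold bound by ErbB2, was at 10.17, 9.84 and 9.67 in ventral, 9.25, 8.68 and 9.07 in target and 5.59, 6.86 and 6.90 in dorsal. Its ventral arrays were the highest and close to target, but its second probe was lower in ventral, with a difference of -0.75 (adjusted p = 0.152), and averaging the 2 probes ended the call. It did not pass against target (adjusted p = 0.257), and with 1 group of 6 the call ended (adjusted p = 0.125). Gab2, a further docking protein, went the other way, with 6.40, 6.91 and 6.60 in ventral, 7.69, 7.38 and 7.86 in target and 8.02, 8.33 and 7.61 in dorsal (-1.18 ± 0.21, adjusted p = 0.0103). The list median was -0.07, and the 13 members that did not pass ran from -0.93 to 0.15, with Erbb3 lowest.

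Of 24 tested genes of myelin and mature oligodendrocytes 4 were higher, none was lower, the median was -0.11 and 10 had a positive difference. The share was 16.7%, against 3.23% of all genes called higher and 7.55% called in either direction. Cldn11, the tight junction protein of myelin, was at 13.11, 13.04 and 12.95 in ventral, 12.77, 12.53 and 12.43 in target and 11.97, 11.76 and 11.66 in dorsal. Its regions formed 3 levels in the order ventral, target, dorsal (0.85 ± 0.15, adjusted p = 0.0103). The call ended with median centring and with 1 group of 6 (adjusted p up to 0.0989). The brightest probes of Mobp and Mbp, a pair of myelin basic proteins, differed by 0.80 and 0.62, whereas the other 4 tested probes of Mobp ran from -0.28 to 0.34 and those of Mbp from -0.58 to 0.15, none of them called. With probe averaging not counted, the call of Mbp ended under 8 alternatives (adjusted p up to 0.258) and that of Mobp under 4 (up to 0.134). Mog, a surface protein of myelin, had the lowest difference among the 20 that did not pass (-0.57 ± 0.19, adjusted p = 0.116). The summed linear intensity of 5 oligodendrocyte markers, 3 of them called here, was 24784 to 30975 in ventral, 21869 to 23724 in target and 15584 to 18179 in dorsal, and its part in other differences was not tested.

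Genes of oligodendrocyte precursors were called in both directions, with 2 higher and 3 lower of 14 (35.7%, against 7.55% of all genes; median -0.06), and 3 of the 5 calls remained with the replicate block. Neu4, a sialidase, was at 7.49, 7.70 and 7.89 in ventral, 9.62, 9.72 and 9.77 in target and 10.04, 10.14 and 10.07 in dorsal. The groups were far apart (-2.20 ± 0.14, adjusted p = 1.08e-04), but the second Neu4 probe, 8.03, 7.41 and 6.57 in ventral, did not follow (-0.03 ± 0.29). Nkx2-2, a transcription factor of the lineage that also marks ventral neural progenitors, was at 8.42, 8.70 and 8.77 in ventral, 10.45, 9.55 and 9.83 in target and 9.65, 10.13 and 10.09 in dorsal (-1.32 ± 0.22, adjusted p = 0.00884), and every ventral array was below the others. Bcas1, a marker of oligodendrocytes that are starting to myelinate, was 13.75, 13.77 and 13.63 in ventral, 13.19, 13.20 and 12.69 in target and 12.50, 12.49 and 12.27 in dorsal (0.99 ± 0.17, adjusted p = 0.00837). It had the same regional order as Cldn11. Cspg4, the NG2 proteoglycan of precursors and pericytes, at -0.70, and Sox10, the transcription factor of the whole lineage, at 0.68, had adjusted p of 0.0504 and 0.0547 with the replicate block.

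Of 22 astrocyte genes 2 were called (9.09%, against 7.55% of all genes). Atp1b2 was higher and Acsbg1, a fatty-acid activating enzyme, lower, with a difference of -0.87 that ended under 3 alternatives (adjusted p up to 0.0599), and the median was -0.06. Gfap and Aqp4, which define astrocytes, differed by -0.13 ± 0.15 and 0.06 ± 0.14 and did not pass. The astrocyte markers Aldh1l1 (-0.55 ± 0.15, adjusted p = 0.0559) and Slc1a3 (-0.12 ± 0.16) did not pass either. Of 12 genes of microglia and leukocytes 1 was called (8.33%, against 7.55% of all genes), and the median was 0.03. The called gene, higher in ventral, was Laptm5, a lysosomal membrane protein of blood-derived cells. It was at 10.29, 10.57 and 10.55 in ventral, 9.09, 8.88 and 8.55 in target and 7.55, 8.61 and 7.48 in dorsal. These groups did not overlap, and the difference was 2.11 ± 0.26 (adjusted p = 0.00271). The microglial marker Aif1 had a difference of -0.75 ± 0.23 by its brightest probe that did not pass (adjusted p = 0.0878). Its other tested probes differed by 0.10 and 0.08. The summed intensity of the 2 tested microglial markers of 4 was 690 to 896 in ventral, 939 to 1494 in target and 1061 to 1768 in dorsal. That sum was made mostly of the brightest Aif1 probe (mean log2 level 9.48 in ventral, against 6.42 for Csf1r), so it largely repeats that probe. Csf1r differed by 0.12. Of 19 endothelial and mural genes Cspg4 alone was called (5.26%, median 0.14). Cldn5, the tight junction protein of brain vessels, was 0.86 ± 0.34 higher without passing (adjusted p = 0.182).

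Blood genes were the list with the lowest median. Of 7 tested, 2 were lower and none was higher. The share was 28.6%, against 4.31% of all genes called lower and 7.55% called in either direction. Every member's difference was below zero, where 44.4% of all genes had a positive one, and the list median was -0.70. Hba-a1 and Hbb-b1 code for globin chains. The summed intensity of the 2 tested red cell markers of 3 was 1623 to 1778 in ventral, 2448 to 2670 in target and 2736 to 3207 in dorsal, and the groups did not overlap. The sum was made mostly of the brightest Hbb-b1 probe (mean log2 level 10.59 in ventral, against 7.40 for Hba-a1), so it largely repeats that probe's call. Another Hbb-b1 probe of similar brightness went the other way, at 11.67 in ventral, 10.96 in target and 10.50 in dorsal (adjusted p = 0.0112). The part of the sum in other differences was not tested. Ermap, a membrane protein of erythroid cells, was at 5.94, 5.53 and 5.56 in ventral, 6.68, 7.72 and 6.93 in target and 7.83, 7.42 and 7.67 in dorsal (-1.70 ± 0.24, adjusted p = 0.00425). Hbb-b1 was called lower by its brightest probe (-0.70 ± 0.14, adjusted p = 0.0152), yet 11 of its probes were tested, and 1 was called lower, 2 were called higher (1 of them with the replicate block) and 8 were not called, over a range from -0.70 to 0.94. Among 14 genes of meninges, ependyma and choroid plexus, Slc13a4, a sulfate transporter of the meninges, was lower at 5.56, 5.63 and 6.14 in ventral, 7.69, 8.61 and 7.87 in target and 6.97, 6.18 and 7.31 in dorsal. The groups were apart, with target highest (-1.66 ± 0.30, adjusted p = 0.0111), and the call ended with 1 group of 6 (adjusted p = 0.0530). The list median was -0.17, and Ttr, the abundant choroid plexus transcript, was near background (0.25 ± 0.41).

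Genes of the extracellular matrix around neurons gave 1 higher and 2 lower calls of 15 (20%, against 7.55% of all genes), with a median of -0.02. Bcan and Ncan, the chondroitin sulfate proteoglycans brevican and neurocan, moved apart. Bcan was at 8.58, 8.47 and 8.38 in ventral, 10.27, 10.40 and 10.24 in target and 10.48, 10.71 and 10.63 in dorsal (-1.98 ± 0.14, adjusted p = 1.44e-04). Ncan was at 10.35, 10.07 and 9.78 in ventral, 9.30, 9.24 and 9.38 in target and 9.10, 8.92 and 8.96 in dorsal (0.92 ± 0.16, adjusted p = 0.0103). Neither overlapped between ventral and the rest, but the other Bcan probes differed by -0.98 ± 0.27 (adjusted p = 0.0663) and 0.45 ± 0.41, and the Ncan call ended with median centring (adjusted p = 0.0615). Crtac1, a secreted antagonist of the Nogo receptor, was at 9.58, 9.78 and 9.93 in ventral, 10.93, 11.00 and 11.08 in target and 10.99, 11.37 and 11.33 in dorsal (-1.35 ± 0.16, adjusted p = 0.00179). It passed against each region.

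Cytoskeletal genes of neurons gave 3 higher and 2 lower calls of 23 (21.7%, against 7.55% of all genes), with a median of 0.01. Tagln3, a neuronal actin-binding protein of the transgelin family, was at 11.23, 11.47 and 11.15 in ventral, 9.67, 9.71 and 8.66 in target and 9.76, 9.32 and 8.70 in dorsal. Target and dorsal overlapped, and ventral was above both (1.98 ± 0.30, adjusted p = 0.00528). Stmn1, a microtubule-destabilizing stathmin, was at 11.47, 11.22 and 11.48 in ventral, 11.01, 10.74 and 10.56 in target and 9.41, 9.63 and 9.46 in dorsal (1.26 ± 0.16, adjusted p = 0.00271), so that dorsal stood apart more than ventral, and its call ended with 1 group of 6 (adjusted p = 0.0817). Ina, the neurofilament protein internexin, was at 9.20, 9.69 and 9.51 in ventral, 10.05, 10.19 and 10.07 in target and 10.45, 10.49 and 10.66 in dorsal (-0.85 ± 0.16, adjusted p = 0.0118). Stmn2, another stathmin, at 0.84, lost its call with the replicate block (adjusted p = 0.0575), and the second Stmn2 probe differed by -0.37. Mapt, which codes for tau, at -0.90, lost its call under 7 alternatives (adjusted p up to 0.0913), and its other probes ran from -0.38 to 0.21. Of 25 synaptic vesicle genes only Sv2a, a vesicle glycoprotein, was called (4%, against 7.55% of all genes), and the list median was -0.03. Sv2a differed by -0.57, with an adjusted p of 0.0673 with the block, and by 0.42 at its second probe. Of 18 pan-neuronal genes only Elavl4, an RNA-binding protein of neurons, was called (5.56%, against 7.55% of all genes), and the list median was 0.04. Elavl4 differed by 0.94 and lost the call under 10 alternatives (adjusted p up to 0.124).

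Regional transcription factors gave 1 higher and 1 lower call of 20 (10%, against 7.55% of all genes), with a median of -0.09. The lower one was Nkx2-2. The higher one, Ebf3, a helix-loop-helix factor, had a difference of 1.25 ± 0.28 (adjusted p = 0.0284) that ended under 6 alternatives (adjusted p up to 0.0971), and its second probe differed by 0.28. None of 6 tested hindbrain Hox genes passed by its brightest probe (median -0.08). Hoxb2 was near background with a difference of 0.00 ± 0.39, and Hoxa2 was at 0.29 ± 0.39. Hoxb3 was at -0.74 ± 0.27 by its brightest probe and was called by a dimmer one (-1.85 ± 0.39, adjusted p = 0.0224), with -0.06 at the third. None of 9 cerebellar genes passed (median 0.08). Pcp2, of Purkinje cells, was at 8.66, 7.52 and 6.84 in ventral, 7.38, 7.54 and 7.12 in target and 5.35, 6.27 and 6.40 in dorsal. Ventral and target overlapped, and the difference of 1.0 ± 0.38 did not pass (adjusted p = 0.169). Cbln1, of granule cells, had -0.86 ± 0.32.

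Genes that respond to activity, stress and time of day were measured in 3 lists. Arc, the activity-induced synaptic gene, was at 8.33, 8.02 and 8.28 in ventral, 9.20, 8.73 and 9.23 in target and 9.23, 9.84 and 9.33 in dorsal. The ventral arrays were the lowest (-1.05 ± 0.20, adjusted p = 0.0130), with an adjusted p of 0.0544 without ventral array 2. Sgk1, a kinase induced by glucocorticoids and abundant in oligodendrocytes, was 1.35 higher, with an adjusted p of 0.0568 with the replicate block. These were the only 2 calls of 12 immediate early genes (16.7%, against 7.55% of all genes; median -0.14). Of 23 heat shock and hypoxia genes 1 was lower (4.35% called, against 7.55% of all genes, with a median of 0.01). It was Egln3, a prolyl hydroxylase of the hypoxia-inducible factors, at 7.05, 7.39 and 6.14 in ventral, 8.48, 9.65 and 9.37 in target and 7.74, 8.53 and 9.04 in dorsal. The lowest dorsal array was a little above the highest ventral array (-1.94 ± 0.38, adjusted p = 0.0169), and without ventral array 3 the adjusted p was 0.0614. Of 14 clock genes 1 was called (7.14%, against 7.55% of all genes), and the list median was 0.01. It was Bhlhe40, a repressor of the clock loop, which was higher (0.74 ± 0.14, adjusted p = 0.0138). The call ended under 2 alternatives (adjusted p up to 0.136).

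Of 36 respiratory chain genes 1 was called (2.78%, median 0.05), Cox5a, a subunit of cytochrome oxidase. It was at 10.94, 11.12 and 10.90 in ventral, 10.43, 10.07 and 10.12 in target and 9.53, 9.45 and 9.50 in dorsal, 3 separate levels with a difference of 1.14 ± 0.15 (adjusted p = 0.00304). Of 32 mitochondrial ribosome genes 2 were higher and 2 lower (12.5%, against 7.55% of all genes; median 0.11). Mrps34 was at 11.50, 11.73 and 11.46 in ventral, 9.68, 9.75 and 9.57 in target and 8.43, 9.47 and 9.54 in dorsal (2.16 ± 0.25, adjusted p = 0.00178). Its ventral arrays were far above the others. Mrpl37 (1.23), Mrpl28 (-0.87) and Mrpl38 (-0.53) had adjusted p of 0.0703, 0.0532 and 0.0822 with the replicate block. Of 29 cytosolic ribosome genes 1 was higher and 1 lower (6.90%, median -0.09). Rps14 was at 11.68, 11.90 and 11.73 in ventral, 11.06, 11.13 and 10.71 in target and 10.53, 10.37 and 10.21 in dorsal (1.10 ± 0.16, adjusted p = 0.00471). Rps3 differed by -0.57, with an adjusted p of 0.0806 with the block.

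**Figure D5:**
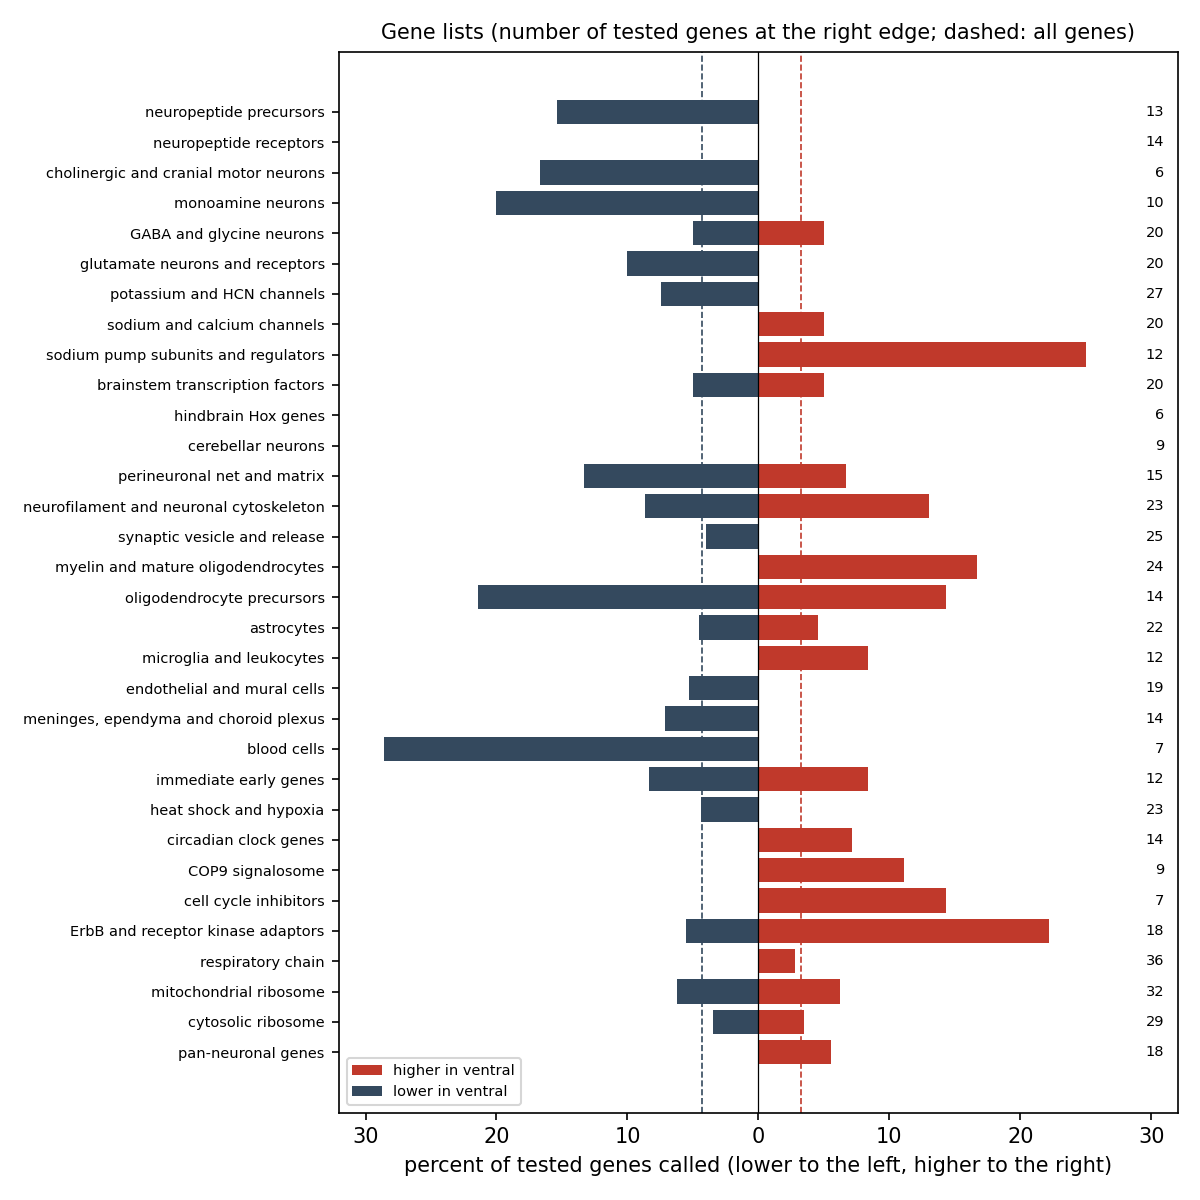
Share of the tested genes of each of the 32 lists that was called (percent), with genes higher in ventral to the right and genes lower to the left of zero, and the number tested at the right edge. Dashed lines mark the shares over all genes, 3.23% higher and 4.31% lower. The sodium pump list reaches 25.0% higher (3 of 12 genes) and the blood list 28.6% lower (2 of 7 genes). 1 of these blood genes is Hbb-b1, for which 2 other probes were called higher. The lists were chosen with earlier results of these data known.

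Over the 32 lists, 533 different genes were tested by their brightest probe. Of these 30 were higher, 28 were lower and 475 did not pass, so that 10.9% were called, against 7.55% of all 14313 genes. Because the lists were chosen with earlier results of these data known, the higher share is not a separate result. In 3 lists, the neuropeptide receptors, the hindbrain Hox genes and the cerebellar genes, no member was called.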

How the data were processed

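The Illumina mouse whole-genome bead platform gave 9 arrays, 3 per region, from 3 mice. The authors' exports came from GenomeStudio 1.6.0, per the file headers, and held linear intensities of each array, both unnormalized and quantile-normalized. The deposited detection score rises to 1 for bright probes, and 1 minus the score served as detection p. Beads per probe were another deposited, other measure. A deposited copy of the intensities equalled the unnormalized export (largest difference 0), and the series matrix equalled the normalized one (largest difference 0, linear, not centred, column medians 182.3 to 182.5).

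From the unnormalized intensities, R 4.3.3 and limma 3.58.1 applied normexp background correction with controls inferred from detection p, an offset of 16, quantile normalization and log2. Probes with detection p below 0.05 on at least 3 of 9 arrays were kept (20461 of 45281). A limma fit over 9 arrays with region as the term gave ventral minus the mean of target and dorsal and the pairwise contrasts, adjusted by Benjamini-Hochberg over all tested probes, with a limit of 0.05. No mouse block was in this fit. The deposited column names give the same mouse to equal numbers, so the fit with that block is an alternative. Deviations of same-numbered arrays from their region means correlated at -0.10 to 0.15 over 9 pairs.

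Names follow RefSeq GRCm38.p6: 27760 probes by symbol, 8033 by synonym, while 9488 stayed under the array's name. A gene is represented by its brightest tested probe. A region at background on all its arrays has only a bound. Slide and scan are not given in the sources used. The lists were neuropeptide precursors and receptors; cholinergic, monoamine, GABA and glycine, glutamate and pan-neuronal genes; potassium, sodium and calcium channels and the sodium pump; brainstem transcription factors, Hox and cerebellar genes; matrix, cytoskeleton and synaptic vesicles; glia, vessels, meninges and blood; early, stress and clock genes; COP9, cell cycle inhibitors, ErbB adaptors, respiratory chain and ribosomes. Named genes were the 12 largest called differences per direction with ventral arrays apart from all others (clone-named, predicted and immunoglobulin genes left out), up to 3 called genes per list and direction, up to 2 members of a list with no call, and a set named whatever their values. Others were chosen after their values were seen. Results for several of these genes were left out of the text. The lists, the rule and the comparison were chosen with earlier results of these data known. Alternatives were the replicate block, other background correction, normalization, offset, filters and variance model, target and dorsal as 1 group, probe averaging and leaving out each array.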

Additional observations from a re-analysis of the deposited data

How the results depend on the processing

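With the mouse as a replicate block, 1249 probes were called, 1148 of them among the 1501, and 141 in place of 326 passed against both regions. Of the 73 named genes with a call, 61 kept it with the block. The count of probes passing against both was 729 without background correction, 728 from the authors' normalized table, 164 with median centring, 502 with an offset of 50 and 726 with a variance trend. Probes called for ventral minus the mean ran from 1202 with target and dorsal as 1 group to 2032 with the variance trend, and 949 of 14313 genes were called when a gene's probes were averaged. Leaving out 1 array gave 885 (without ventral array 1) to 1288 calls, and 62 (without target array 3) to 228 against both, all fewer than with 9 arrays. Of these 73, 38 kept their call under every one of the 19 alternatives. Averaged over its 5 probes, Mbp turned to -0.013. Without background correction, large differences of dim probes shrank, to -2.94 for Mmel1 and 2.69 for Cops6. With 3 arrays per region, the number of arrays limits the precision.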
